A study of Mus musculus with 34 samples.

Results

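The levels of the long noncoding RNAs Malat1, Neat1, Meg3 and Kcnq1ot1 and of the predicted gene Gm10800 were described in single mast cells (MCs) and Myh11-GFP+ cells of mouse ear skin. They are 5 of the 25852 genes in the tables and were taken by name, chosen by their levels and by their correlations across cells in these data. Levels in the cell classes and correlations are therefore given as a description without a test. A test was made only between genotypes, a contrast that the rule of choice did not name. Earlier results of these data were known when the genes were chosen, so the test is not wholly independent of the choice. MCs came from male mice of 7 weeks. All of them carried Mcpt5-Cre, in which the promoter of the MC protease gene Mcpt5 (Cma1) drives the recombinase, and the R26 LSL:YFP reporter, which Cre switches on. WT mice (n = 3) were Tln1+/+ littermates, and Tln1ΔMC mice (n = 3) carried floxed Tln1, the gene of talin-1, an adaptor between integrins and actin. No mouse was treated. Ears were digested for 75 min at 37 °C, and CD45+ cells that were negative for lineage markers and positive for YFP were sorted one by one. CD45- GFP+ cells of Myh11 GFP/+ mice, a sort that takes smooth muscle cells and pericytes, filled 4 libraries. The number of these mice is not given, and they were treated as 1 sample. In mCEL-Seq2, cDNA is primed from poly(A), each well has a cell barcode, and each captured RNA molecule has a unique molecular identifier (UMI) of 6 bases. Cells with over 1000 transcripts were kept, which left 2477 MCs in 30 libraries and 330 Myh11-GFP cells in 4 libraries. The paper left out a very small subset of cells with macrophage features. No cell was left out by its markers here, so MC names the sort, and some of these cells carried markers of other cell types. WT mice 1, 2 and 3 gave 338, 294 and 272 cells, and Tln1ΔMC mice 1, 2 and 3 gave 285, 354 and 934 cells.

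Long noncoding RNAs of this kind act in the nucleus. Malat1 collects in nuclear speckles, the stores of splicing factors, and Neat1, transcribed next to it on the same chromosome, is the scaffold of paraspeckles. Meg3 is expressed from the maternal copy of the imprinted Dlk1-Dio3 domain, and Kcnq1ot1 from the paternal copy of the Kcnq1 domain, where it starts inside Kcnq1 in antisense direction and silences neighbouring genes. Gm10800 is a gene model in a stretch of chromosome 2 that resembles the major satellite, the tandem repeat of mouse pericentromeric heterochromatin. It is annotated as protein coding, and no function is known for it.

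The sequence of Gm10800 is shown because its own repeats and its likeness to other Gm genes, the predicted genes named Gm and a digit, bear on what its counts can stand for. In GENCODE M21 on GRCm38, Gm10800 spans chr2:98666547-98667301 on the minus strand, with a transcript of 660 bases in 5 exons, of which 45.8% are T. The first 2 stretches of 225 bases of this transcript lie side by side below. Shifted by 225 bases, the transcript was identical to itself at 56.3% of 435 bases, against a median of 30.7% over 380 shifts. Capitals mark bases in runs of 20 that also occur on the opposite strand of Gm26870, the Gm gene with the next largest share of MC transcripts.
Gm10800 bases 1 to 225: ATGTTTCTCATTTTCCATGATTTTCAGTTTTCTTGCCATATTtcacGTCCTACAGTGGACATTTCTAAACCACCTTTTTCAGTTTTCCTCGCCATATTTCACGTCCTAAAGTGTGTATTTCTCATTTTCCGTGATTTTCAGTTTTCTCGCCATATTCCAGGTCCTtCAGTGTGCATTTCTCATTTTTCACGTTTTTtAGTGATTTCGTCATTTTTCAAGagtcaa
Gm10800 bases 226 to 450: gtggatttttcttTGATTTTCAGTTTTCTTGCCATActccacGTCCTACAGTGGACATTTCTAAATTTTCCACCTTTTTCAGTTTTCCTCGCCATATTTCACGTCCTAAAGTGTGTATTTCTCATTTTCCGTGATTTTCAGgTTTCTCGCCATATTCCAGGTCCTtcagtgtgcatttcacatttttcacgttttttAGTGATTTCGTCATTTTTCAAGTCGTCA
Of these stretches, 94.7% and 76.9% of bases were shared with Gm26870 in this way. Of the 456 different runs of 20 bases in Gm10800, 37.5% occurred in Gm26870 on the opposite strand, and 25.7% to 41.7% occurred on the same strand in each of 11 other Gm genes of satellite-like loci. None of the 456 occurred in the annotated transcripts of Malat1, Neat1, Meg3 or Kcnq1ot1, or in any of the genes named below for their likeness to the 5 that had an annotated transcript. Of the 12 Gm genes of satellite-like loci, Gm26870 and the 11 others, 5 had counts of their own. The authors merged gene loci whose sequences largely overlapped and discarded reads that mapped to several loci. Transcripts of the shared stretches could thus be lost, and which satellite copy a Gm10800 count came from is uncertain.

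Kcnq1ot1, Malat1 and Neat1 differ in how much A they carry inside the transcript, which is shown because the cDNA was primed from A stretches. Kcnq1ot1 (chr7:143203458-143296549, minus strand, a single exon of 93092 bases) held 5 runs of at least 15 A, and Malat1 (chr19:5795690-5802672, minus strand, 6983 bases) and Neat1 (chr19:5824708-5845478, minus strand, 20771 bases) held none. The longest run of each is printed in capitals with its flanks, 5′ to 3′.
Kcnq1ot1, 41 A, chr7:143226915-143227015: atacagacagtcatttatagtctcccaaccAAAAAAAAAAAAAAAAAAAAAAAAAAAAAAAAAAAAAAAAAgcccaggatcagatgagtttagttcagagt
Malat1, 12 A, chr19:5795958-5796029: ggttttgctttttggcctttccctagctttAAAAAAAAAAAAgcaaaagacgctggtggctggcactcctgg
Neat1, 7 A, chr19:5835904-5835970: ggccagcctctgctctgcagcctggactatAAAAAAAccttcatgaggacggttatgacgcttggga
The longest run of A in Gm10800 was 3 bases. Where the counted reads lay on these transcripts was not tested.

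The median number of transcripts per cell was 4578 to 7097 in the MC mice and 4593 in Myh11-GFP cells, and outside Gm genes it was 1889 to 4776 and 3915. The targeted gene Tln1 still gave 4.51, 5.92 and 6.71 transcripts per 10000 outside Gm genes in the WT animals, against 5.57, 4.33 and 3.63 for Tln1ΔMC, a log2 difference of -0.29 with overlapping groups (limma, adjusted p = 0.917). Whether the counted end of Tln1 lies in the deleted part was not tested. All 10 MC markers were found in every MC mouse, with a summed level of 670 to 899 per 10000, against 0.486 in Myh11-GFP cells, where 5 of them were at 0. Myh11-GFP cells held 81.9 per 10000 of 6 smooth muscle markers and 127.1 of 7 pericyte markers, and also 306 of 8 fibroblast markers. Most of the last sum came from matrix genes: Sparc stood at 117.7, Col1a2 at 60.7, Col3a1 at 53.8 and Col1a1 at 47.5. Sparc was found in 99.7% of Myh11-GFP cells, so the sum does not give the share of fibroblasts, which was not tested. The paper reports that the sort also took a small fraction of fibroblasts. Fibroblast markers summed to 26.5, 99.4 and 73.6 per 10000 for WT mice 1, 2 and 3, against 13.01, 2.89 and 1.37 for Tln1ΔMC. Single libraries carried these sums: library 1 of WT mouse 2 held 516.4 per 10000 and its other 3 libraries 3.05 to 4.08, and library 2 of WT mouse 3 held 272.2 and the others 0.484 to 8.14. Most of the sum of WT mouse 3 lay in a single cell of library 2. That cell held 833 per 10000 of fibroblast markers over 54604 transcripts outside Gm genes, and the whole mouse had 699401 of these. In WT mouse 1 library 16 held 70.3 and the others 2.33 to 17.9, and in Tln1ΔMC mouse 1 library 3 held 47.4 and the others 1.79 to 3.26. The counts on barcodes that were not in use sorted the libraries into 4 sets. WT mouse 1 and Tln1ΔMC mouse 1 formed a set, WT mice 2 and 3 and Tln1ΔMC mouse 2 another, and Tln1ΔMC mouse 3 and the Myh11-GFP libraries 1 each, so that what sets Tln1ΔMC mouse 3 or the Myh11-GFP cells apart cannot be told apart from their set.

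Gm10800 held more transcripts of MCs than any other gene. Summed over all MCs it made up 27.4% of transcripts. For WT mice 1, 2 and 3 it reached 40.7%, 29.1% and 47.8%. For Tln1ΔMC mice 1, 2 and 3 it reached 34.2%, 45.4% and 7.91%, and Myh11-GFP cells held 12.1%. Tln1ΔMC mouse 3 was the only MC mouse below the Myh11-GFP cells. From the highest, the order was WT 3, Tln1ΔMC 2, WT 1, Tln1ΔMC 1, WT 2, Myh11-GFP and Tln1ΔMC 3, and the libraries of neighbours in this order overlapped except those of WT 2, 19.9% to 37.4%, and Myh11-GFP, which all lay lower. Within Tln1ΔMC mouse 3 the 10 libraries spread from 1.48% to 23.8%, so the share varied as widely between libraries of 1 mouse as between some mice. Kcnq1ot1 followed the same libraries: the library with the most Gm10800 also held the most Kcnq1ot1, 0.0814% of all transcripts, and the 2 with the least Gm10800 held the least Kcnq1ot1, 0.0136% and 0.0127%.

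**Figure D1:**
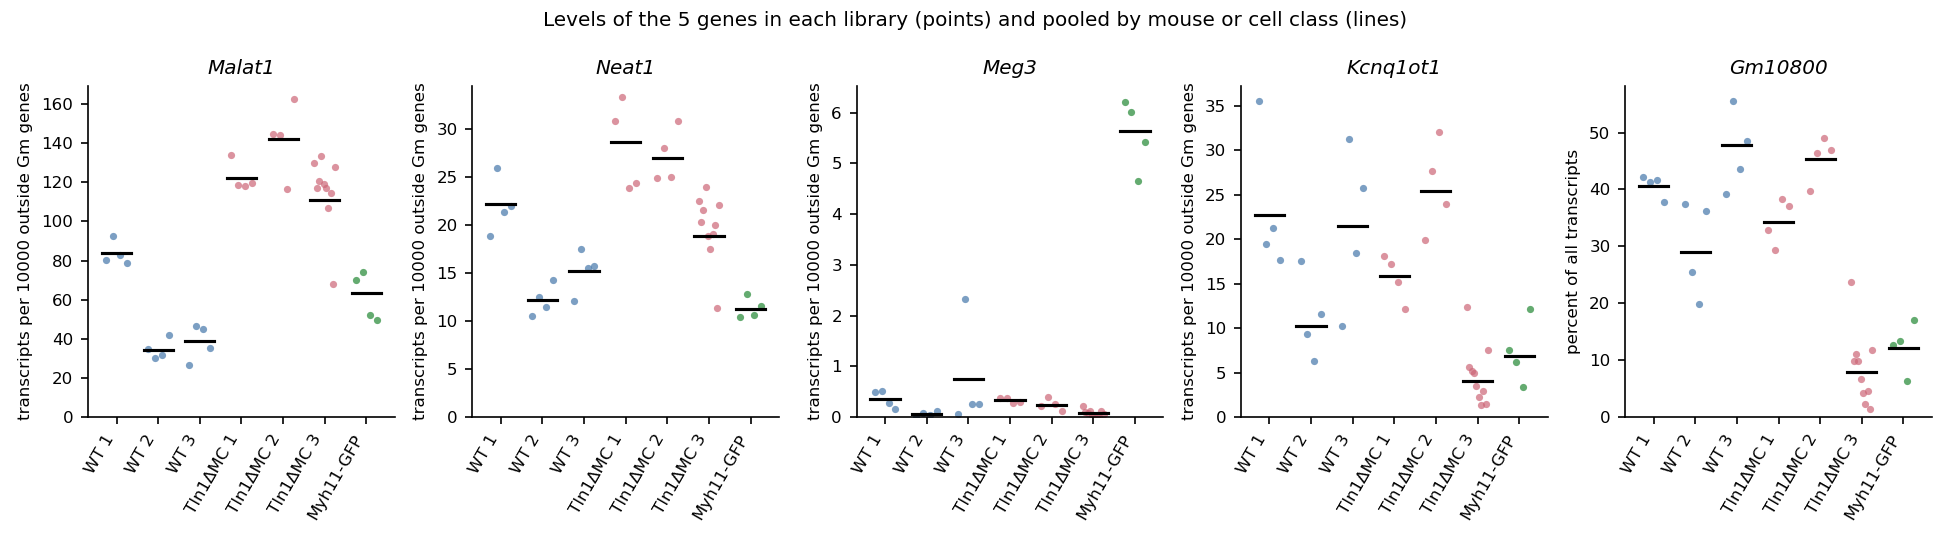
Level of each of the 5 genes by mouse and for Myh11-GFP cells, as transcripts per 10000 outside Gm genes (Gm10800 as percent of all transcripts); points are libraries and lines are values pooled over the cells of a mouse or class. Malat1 lines of the 3 Tln1ΔMC mice (110.7 to 142.2) lie above those of the 3 WT mice (34.1 to 83.7), Meg3 is high only in the Myh11-GFP libraries (4.65 to 6.21), and Kcnq1ot1 and Gm10800 are both lowest in Tln1ΔMC mouse 3.

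From cell to cell the Gm10800 share covered nearly the whole scale. It ran from 0.0623% to 87.5% of a cell's transcripts, was found in each of the 2477 MCs and 330 Myh11-GFP cells, and had a median of 18.6% over MCs. Over 50% of the transcripts were Gm10800 in 518 MCs (20.9%) and in 19 Myh11-GFP cells (5.76%). The shape of the spread differed between mice. In WT mouse 3 each bin of 10 percentage points up to 80% held 28 to 39 cells. In Tln1ΔMC mouse 2 there were 56 cells at 10% to 20%, 34 in each of the next 2 bins and 65 at 60% to 70%. In WT mouse 2 there were 54 cells at 20% to 30%, 16 in the next bin and 24 at 50% to 60%, whereas 73.3% of the cells of Tln1ΔMC mouse 3 and 63.3% of Myh11-GFP cells held under 10%. With 6 bases the number of possible UMIs is limited, and 35 MCs had used over 90% of them on Gm10800, up to 4050. In those cells the corrected transcript number, up to 18387.5, rests on few unused UMIs and is imprecise.

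**Figure D2:**
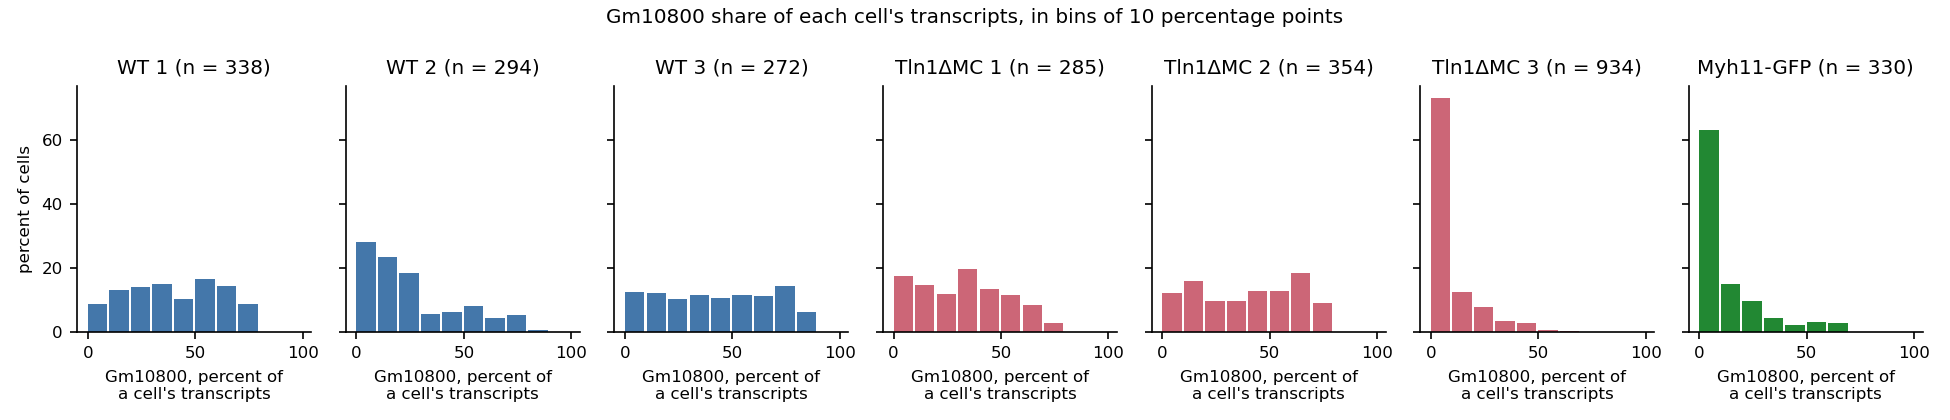
Percent of cells (vertical axis) in bins of 10 percentage points of the Gm10800 share of a cell's transcripts (horizontal axis), for each mouse and for Myh11-GFP cells. The shares are spread broadly in 5 MC mice, while 73.3% of the cells of Tln1ΔMC mouse 3 and 63.3% of Myh11-GFP cells lie in the lowest bin.

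Other Gm genes followed at a distance. All 5640 Gm genes together held 36.1% of MC transcripts, and 75.98% of that was Gm10800. Next came Gm26870 with 2.25%, an annotated noncoding RNA of a satellite-like locus on chromosome 9, which made up 2.99%, 2.72% and 4.09% for WT and 2.42%, 3.27% and 0.886% for Tln1ΔMC mice, lowest again in Tln1ΔMC mouse 3. Gm29055 (0.746%), Gm21833 (0.713%), Gm37954 (0.269%), Gm37158 (0.245%) and Gm37746 (0.191%) shared no run of 20 bases with Gm10800 but were each lowest in Tln1ΔMC mouse 3 among the MC mice too. Gm42418, a gene model on chromosome 17 (0.416%), went the other way, with its highest MC share, 0.669%, in Tln1ΔMC mouse 3 and 0.931% in Myh11-GFP cells. Gm10717 (0.375%), which shared 39.04% of the runs of 20 bases on the same strand, was lowest in WT mouse 2 (0.218%). So the low Gm10800 share of Tln1ΔMC mouse 3 was seen in some Gm genes without its sequence and not in every satellite-like gene with it.

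Kcnq1ot1 gave 22.8, 10.3 and 21.5 transcripts per 10000 outside Gm genes for WT mice 1, 2 and 3, against 15.9, 25.4 and 4.08 for Tln1ΔMC mice 1, 2 and 3. In Myh11-GFP cells its level was 6.84 (95% exact Poisson interval 6.42 to 7.28, counting error only), within the range of the MC mice. The 3 mice with the highest Gm10800 share, WT 3, Tln1ΔMC 2 and WT 1, were also the 3 with the most Kcnq1ot1. Every pair of neighbours in the order of Kcnq1ot1 levels overlapped between libraries. Kcnq1ot1 was found in 74.7% of MCs and 61.8% of Myh11-GFP cells, and in 46.8% and 33.9% once each cell was thinned to 1000 UMIs outside Gm genes (282 MCs and 23 Myh11-GFP cells were too shallow and left out).

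Across the cells of a library, Kcnq1ot1 and Gm10800 rose and fell together. Spearman's rho between the Kcnq1ot1 level and the Gm10800 share was positive in 30 of 30 MC libraries, with a median of 0.69 and a range of 0.19 to 0.91, and in 4 of 4 Myh11-GFP libraries, with a median of 0.74 (58 to 97 cells a library, median 82.5). The cells of a library share its depth and its amplification, and in MCs the Gm10800 share also went with fewer transcripts outside Gm genes, rho -0.42, negative in 30 of 30 libraries, so these points are not independent. In Myh11-GFP cells the rho with this number had a median of -0.01 and ran from -0.57 to 0.20 over the 4 libraries, 2 of them positive. The 4 lowest values for Kcnq1ot1 and Gm10800, 0.19 to 0.35, were those of libraries 5 to 8 of Tln1ΔMC mouse 3, each with a Gm10800 share of 1.48% to 4.53%. With each cell thinned to 1000 UMIs outside Gm genes the median rho was 0.61 in MCs and 0.57 in Myh11-GFP cells, and with all transcripts in the total of Kcnq1ot1 it was 0.54 and 0.69.

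The same was seen in levels. Cells of each library were put into 4 bins of equal size by their Gm10800 share. In WT mouse 1 the Kcnq1ot1 level was 5.58, 14.9, 37.3 and 89.6 per 10000 outside Gm genes from the lowest bin to the highest. In Tln1ΔMC mouse 3 it was 1.10, 2.37, 3.95 and 9.63, and in Myh11-GFP cells 1.29, 2.57, 5.16 and 21.3. The level rose at each step in all 6 mice and in Myh11-GFP cells, and the highest bin exceeded the lowest 8.33-fold (WT mouse 3) to 25.9-fold (Tln1ΔMC mouse 2). Depth moved with it: the median number of transcripts outside Gm genes was lower in the highest bin than in the lowest in all 6 MC mice, from 3478 to 813 in WT mouse 1 and from 5742 to 3300 in Tln1ΔMC mouse 3, while in Myh11-GFP cells it was 3706 and 3540. The number of Kcnq1ot1 transcripts per cell, which has no total under it, was also higher in the highest bin, 1.97-fold (WT mouse 3) to 12.9-fold (Myh11-GFP). The part of depth in these gradients was not tested.

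**Figure D3:**
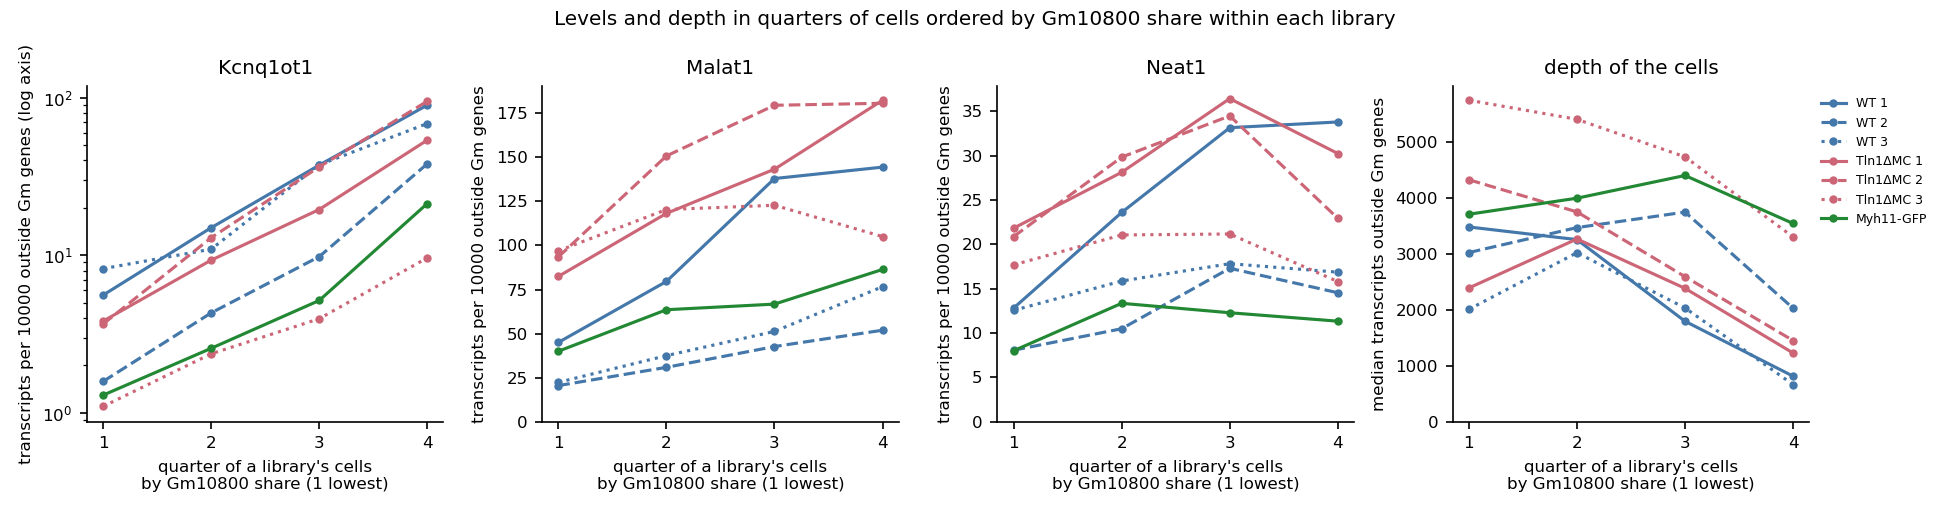
Level of Kcnq1ot1 (log axis), Malat1 and Neat1, as transcripts per 10000 outside Gm genes, and the median number of transcripts outside Gm genes, in 4 bins of cells ordered by Gm10800 share within each library. Kcnq1ot1 rises at each step in all 7 lines (8.33-fold to 25.9-fold from end to end), Malat1 in all but Tln1ΔMC mouse 3, and depth falls from the first to the last bin in the 6 MC mice.

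Other genes ran the other way. Cpa3, the MC carboxypeptidase, had the lowest rho with Gm10800 of the 1807 genes compared in MCs, -0.43, negative in 30 of 30 libraries, followed by Serpinb1a (-0.37) and the chymase gene Cma1 (-0.34), which were named after their values had been seen. From the lowest to the highest bin by Gm10800 share Cpa3 went from 183.7 to 53.5 per 10000 in WT mouse 1 and from 125.4 to 70.4 in Tln1ΔMC mouse 3, but from 103.5 to 107.5 in WT mouse 2. The share of ribosomal protein transcripts was lower in the highest bin in 5 of 6 MC mice and in Myh11-GFP cells, and higher in Tln1ΔMC mouse 3 (3.49% and 6.17%).

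The study left out cells with over 2% of transcripts from Kcnq1ot1, which it named a potential marker of low quality. Of all transcripts, Kcnq1ot1 made up at most 0.920% in any MC and 0.548% in any Myh11-GFP cell, so that 0 of 2477 MCs (which allows a share of up to 0.121%, counting error only) and 0 of 330 Myh11-GFP cells passed that limit. As a share of transcripts outside Gm genes, 34 MCs (1.37%) and 8 Myh11-GFP cells (2.42%) were over it, up to 4.11%. By mouse, 4.14%, 0.680% and 2.57% of cells in WT and 1.40%, 1.69% and 0.107% in Tln1ΔMC mice lay over 2% on that scale, and the groups overlapped (difference of the means -1.40 percentage points, exact two-sided permutation test, n = 3 and 3, p = 0.3). Whether a cell passed the limit thus turned on whether Gm genes were in its total.

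A small group of other genes went with both Kcnq1ot1 and Gm10800. Among 1807 genes found in at least 25% of MCs, Gm genes left out, the genes most like Gm10800 by median rho over libraries were A430073D23Rik (0.75), Kcnq1ot1 (0.69), RP23-341H2.4 (0.64), 9930111J21Rik1 (0.55) and F830016B08Rik (0.44). The other 4 also led the list of Kcnq1ot1, with 0.77, 0.67, 0.58 and 0.47, ahead of Mid1 (0.45), a microtubule-bound ubiquitin ligase. In Myh11-GFP cells A430073D23Rik (0.81), Kcnq1ot1 (0.74), RP23-341H2.4 (0.72), 9930111J21Rik1 (0.63) and Mme (0.50), a cell surface peptidase, were most like Gm10800, and the list of Kcnq1ot1 was A430073D23Rik (0.72), RP23-341H2.4 (0.70), 9930111J21Rik1 (0.60), Nkain3 (0.46) and Mme (0.46). Over all 1807 genes the median rho with Gm10800 in MCs was -0.13, and 37 genes were over 0.2. A430073D23Rik is annotated as a noncoding RNA on chromosome 5, while 9930111J21Rik1 is protein coding. Between mice, A430073D23Rik gave 36.2, 17.9 and 39.97 per 10000 for WT and 30.3, 39.6 and 4.40 for Tln1ΔMC, lowest in Tln1ΔMC mouse 3 like Gm10800.

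**Figure D4:**
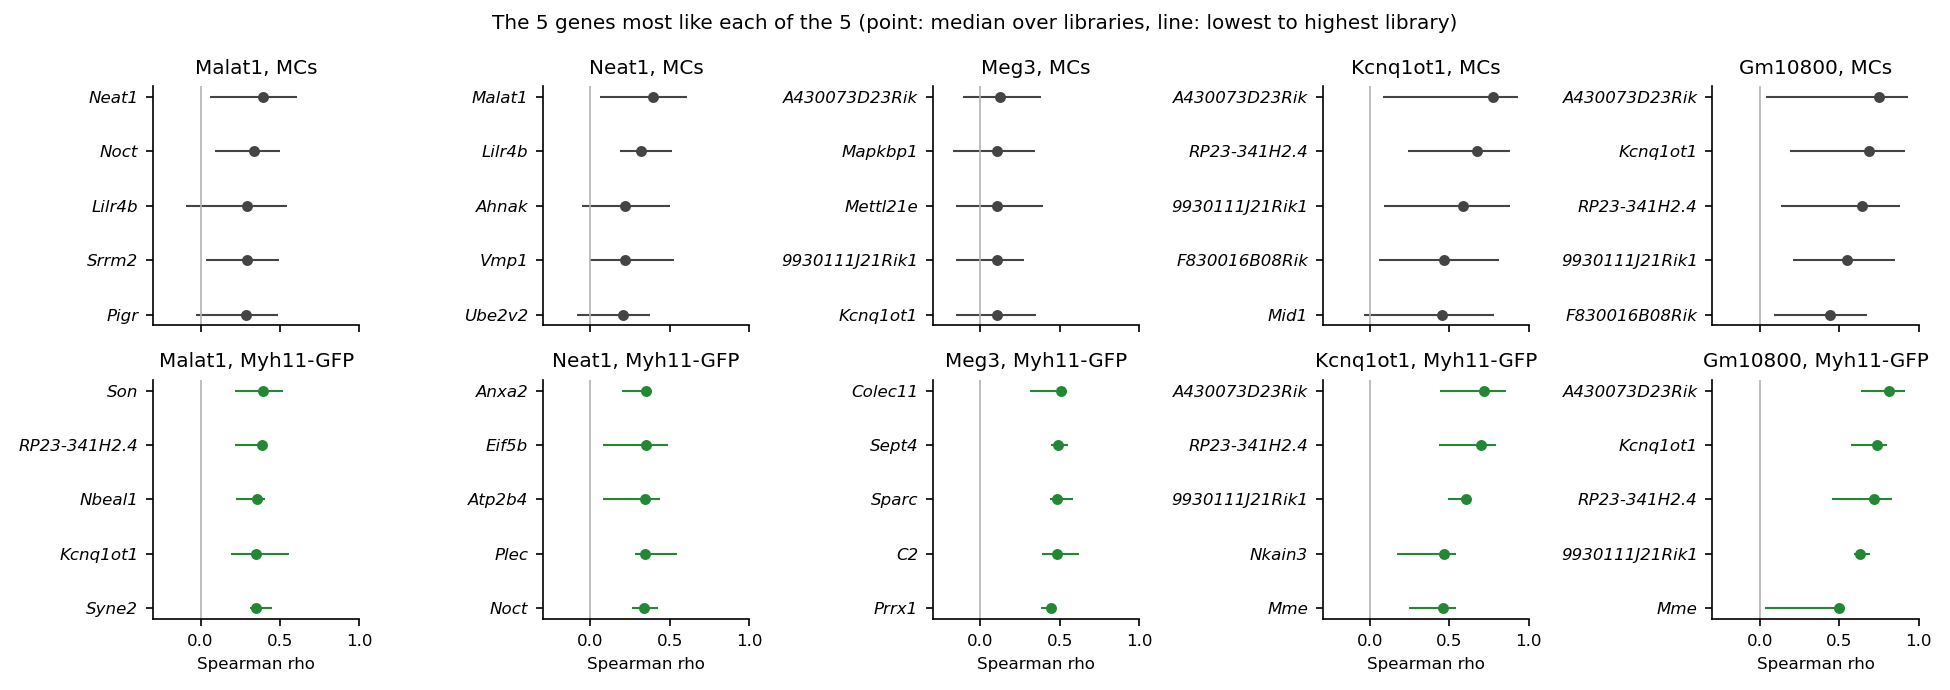
The 5 genes with the highest median Spearman rho over libraries with each of the 5 genes, in MCs (upper row, 30 libraries, 28 for Meg3) and Myh11-GFP cells (lower row, 4 libraries); points are medians and lines run from the lowest to the highest library. A430073D23Rik is the nearest to Kcnq1ot1 and Gm10800 in both classes (0.72 to 0.81), and no gene exceeds 0.39 for Malat1 or Neat1 or 0.12 for Meg3 in MCs.

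Malat1 was higher in MCs of each Tln1ΔMC mouse than in those of each WT mouse. WT mice 1, 2 and 3 held 83.7, 34.1 and 39.01 transcripts per 10000 outside Gm genes (52.3 ± 27.4, SD, n = 3). Tln1ΔMC mice 1, 2 and 3 held 122.4, 142.2 and 110.7 (125.1 ± 15.9, SD, n = 3). WT mouse 1 stood apart from the other WT mice, and the groups did not overlap. After TMM normalization the log2 difference was 1.42 (SE 0.36), a 2.68-fold higher level, which did not pass the adjustment over all 9233 genes tested (limma, p = 0.00343, adjusted p = 0.629). Malat1 ranked 46 of 9233 by p, and its adjusted p ran from 0.164 to 0.999 over 23 fits. The exact two-sided permutation test over the mice gave p = 0.1, the smallest that 3 against 3 allows. With limma 0 of 9233 genes passed at an adjusted p of 0.05 (0.0%). At an unadjusted p under 0.05 there were 524 (5.68%), 3.89% higher and 1.79% lower in Tln1ΔMC mice. The groups did not overlap for 1072 genes (11.6%), 7.6% higher and 4.01% lower. With the set of libraries as a term, a fit added after seeing the data, 1 gene passed the adjusted threshold (0.0108%), and Malat1 (log2 difference 1.42, adjusted p = 0.268) and Neat1 (0.79, adjusted p = 0.353) were among the 5.1% of genes that were higher at an unadjusted p under 0.05. Within the sets of libraries the Malat1 ratio of Tln1ΔMC to WT was 1.46 (WT mouse 1 and Tln1ΔMC mouse 1) and 3.89 (WT mice 2 and 3 and Tln1ΔMC mouse 2), and Tln1ΔMC mouse 3 had no WT mouse in its set. The log2 difference was 1.46 without library 1 of WT mouse 2, where fibroblast markers reached 516 per 10000. All 6 fibroblast markers tested were lower in Tln1ΔMC mice at an unadjusted p under 0.05, as were 3 of 9 macrophage markers, and their part in the Malat1 difference was not tested.

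Neat1 pointed the same way with a smaller difference. WT mice 1, 2 and 3 held 22.2, 12.2 and 15.3 transcripts per 10000 outside Gm genes (16.6 ± 5.15, SD, n = 3). Tln1ΔMC mice held 28.7, 27.03 and 18.9 (24.9 ± 5.24, SD, n = 3). WT mouse 1 lay above Tln1ΔMC mouse 3, so the groups overlapped, and the log2 difference was 0.66 (SE 0.26, limma p = 0.034, adjusted p = 0.835, 0.323 to 1.000 over the alternatives, exact permutation p = 0.2). As a percent of all transcripts, Gm genes in the total, the Neat1 groups did not overlap (0.0828% ± 0.0221 and 0.146% ± 0.0248, SD, n = 3 each). That total lifts any gene outside Gm genes in Tln1ΔMC mouse 3 relative to the other MC mice. Gm genes held 14.2% of its transcripts, and 36.7% or more in each other MC mouse. The share of all genes without overlap on this scale was not tested. Set by set, the Neat1 ratio of Tln1ΔMC to WT was 1.29 and 1.97. The sums over sorted cells do not by themselves separate a difference in the cells sorted from a difference in RNA per cell. In the median cell the Malat1 level was 87.04, 29.07 and 30.2 per 10000 outside Gm genes for WT mice 1, 2 and 3. It was 119.03, 138.19 and 119.19 for Tln1ΔMC mice 1, 2 and 3, without overlap. For Neat1 the medians were 18.96, 9.59 and 8.96 against 19.92, 18.93 and 16.68, and WT mouse 1 overlapped with the Tln1ΔMC mice. Whether the kind of MC sorted differed was not tested.

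In Myh11-GFP cells Malat1 stood at 63.2 (61.9 to 64.5), within the range of the MC mice, and Neat1 at 11.3 (10.7 to 11.8), below all 6 MC mice (each with its 95% exact Poisson interval), though as a percent of all transcripts Neat1 lay within their range. Of the 9233 genes, 38.4% were below all 6 MC mice in Myh11-GFP cells and 21.7% above, so the place of Neat1 is a common one. For Malat1 the order from the highest was Tln1ΔMC 2, Tln1ΔMC 1, Tln1ΔMC 3, WT 1, Myh11-GFP, WT 3 and WT 2. Library ranges of the 3 Tln1ΔMC mice overlapped, and WT 1 (78.9 to 92.5) overlapped with Tln1ΔMC 3 through library 8 of that mouse alone (67.9). Myh11-GFP (49.8 to 73.9) overlapped with neither WT 1 above it nor WT 3 below it (26.8 to 46.6), and WT 3 and WT 2 overlapped. The Neat1 order was Tln1ΔMC 1, Tln1ΔMC 2, WT 1, Tln1ΔMC 3, WT 3, WT 2 and Myh11-GFP, with overlapping neighbours throughout.

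Malat1 and Neat1 went together from cell to cell. Their rho was positive in 30 of 30 MC libraries, with a median of 0.39 and a range of 0.06 to 0.61, and 0.32 in Myh11-GFP cells (4 of 4 libraries). In 4 bins of cells by Malat1 level, Neat1 went from 11.7 to 38.9 per 10000 in WT mouse 1 and from 11.6 to 26.1 in Tln1ΔMC mouse 3, and it was 2.03-fold (Myh11-GFP) to 3.74-fold (WT mouse 3) higher in the highest bin. Neat1 was the gene most like Malat1 among 1807 in MCs, and Malat1 the most like Neat1. Next to Malat1 in MCs came Noct (0.33), the gene of nocturnin, Lilr4b (0.29), a leukocyte receptor, Srrm2 (0.29), a nuclear speckle protein, and Pigr (0.29), and next to Neat1 came Lilr4b (0.32), Ahnak (0.22), Vmp1 (0.21) and Ube2v2 (0.21). In Myh11-GFP cells the genes most like Malat1 were Son (0.39), another nuclear speckle protein, RP23-341H2.4 (0.39), Nbeal1 (0.36), Kcnq1ot1 (0.35) and Syne2 (0.35), a nuclear envelope protein, and those most like Neat1 were Anxa2 (0.35), Eif5b (0.35), Atp2b4 (0.34), Plec (0.34) and Noct (0.34). These values stand on a raised background. Over all genes compared in Myh11-GFP cells the median rho was 0.12 with Neat1, where 285 genes were over 0.2, and 0.06 with Malat1. With the number of transcripts outside Gm genes Neat1 had a median rho of 0.38 there, above its rho with any gene, and Malat1 0.19. Thinning each cell lowered the rho of Malat1 and Neat1 in these cells, as given at the end.

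Ribosomal protein transcripts moved against Malat1. The rho of Malat1 with their share of transcripts was -0.37 in MCs, negative in 30 of 30 libraries, and -0.29 in Myh11-GFP cells, and from the lowest to the highest bin by Malat1 their share went from 3.85% to 2.25% in WT mouse 1 and from 5.75% to 2.84% in Tln1ΔMC mouse 3. This was not particular to Malat1: in MCs the share had a rho of -0.39 with Gm10800, -0.34 with Kcnq1ot1 and -0.18 with Neat1. It also went with the number of transcripts outside Gm genes, at 0.28. With Gm10800 Malat1 had a rho of 0.30 (28 of 30 MC libraries positive) and with Kcnq1ot1 0.23 (27 of 30). Both turned with the total: with Gm genes in it they were -0.14 and -0.13. From bin to bin of Gm10800 share Malat1 rose at each step in 5 MC mice and in Myh11-GFP cells, from 44.98 to 144.5 per 10000 in WT mouse 1, but the number of Malat1 transcripts per cell was lower in the highest than in the lowest bin in 5 of 6 MC mice, 18.3 and 13.7 in WT mouse 1. The rho of Neat1 in MCs was 0.02 with Kcnq1ot1 and 0.08 with Gm10800, and with Gm genes in the total of Neat1 and Kcnq1ot1 it was -0.17 and -0.25.

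**Figure D5:**
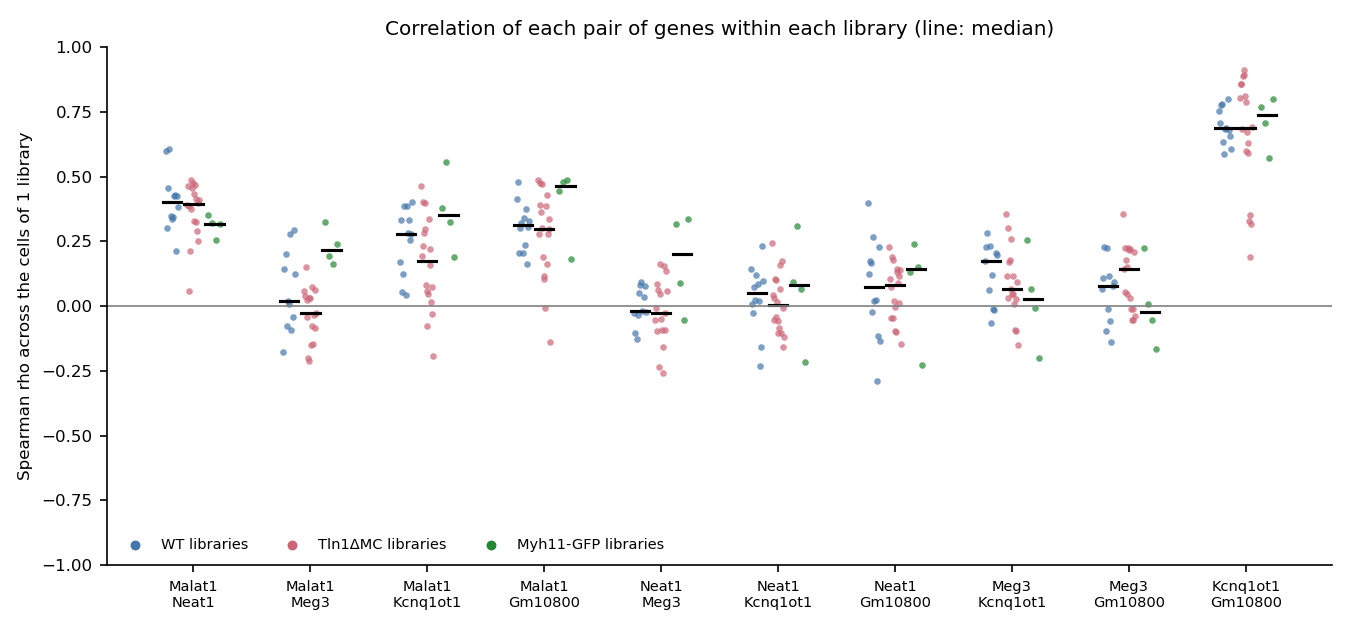
Spearman rho across the cells of each library for the 10 pairs of the 5 genes (vertical axis, -1 to 1), with 1 point per library and a line at the median of WT, Tln1ΔMC and Myh11-GFP libraries. Kcnq1ot1 with Gm10800 has the highest medians (0.69 over all MC libraries and 0.74 in Myh11-GFP), Malat1 with Neat1 is above 0 in every library, and pairs with Meg3 scatter around 0 in MCs.

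Meg3 (chr12:109541001-109571726, plus strand) set the 2 cell classes apart. WT mice 1, 2 and 3 held 0.358, 0.0610 and 0.747 transcripts per 10000 outside Gm genes and Tln1ΔMC mice 0.333, 0.246 and 0.0745. Myh11-GFP cells held 5.63 (95% exact Poisson interval 5.25 to 6.03), 18.6-fold above the mean of the 6 MC mice (31.2-fold as a percent of all transcripts, Gm genes in the total). All 4 Myh11-GFP libraries, 4.65 to 6.21, lay above all 30 MC libraries, which reached at most 2.32. At 1000 UMIs a cell, Meg3 was found in 34.5% of Myh11-GFP cells (exact 95% interval 29.2% to 40.1%) and 2.32% of MCs (1.73% to 3.04%). Both intervals take pooled cells as independent and hold counting error only. By mouse the MC share was 4.35%, 0.763% and 1.02% for WT and 5.42%, 3.43% and 1.30% for Tln1ΔMC. These values spread more widely than the MC interval. Without thinning Meg3 was found in 49.1% of Myh11-GFP cells and 4.76% of MCs, at median depths of 3904.5 and 3295 UMIs outside Gm genes. The part of free RNA or of other cells in the MC share was not tested. A single cell held 22.9% of all Meg3 transcripts of MCs, 42.2 of 184.3: it lay in library 2 of WT mouse 3, had 83577 transcripts, and held 833 per 10000 of fibroblast markers beside 118.5 of MC markers. Doublets had been excluded at the sort, and no doublet caller was run here.

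Among Myh11-GFP cells Meg3 went with markers other than those of smooth muscle. The cells with Meg3, 49.1% of them, held a median of 214 per 10000 of fibroblast markers and 49.03 of smooth muscle markers, against 93.5 and 87.3 in the cells without it, and their median depth was higher, 4384 against 3156.5 UMIs outside Gm genes. Pericyte markers were also higher in cells with Meg3, with medians of 148.8 and 97.5. How much of the difference in fibroblast markers Sparc carried was not tested. The genes most like Meg3 over the 4 libraries were Colec11 (0.51), a collectin, Sept4 (0.49), Sparc (0.48), a matrix protein also on the fibroblast list, C2 (0.48), a complement component, and Prrx1 (0.44), a mesenchymal transcription factor. In MCs the highest was 0.12 (A430073D23Rik), followed by Mapkbp1, Mettl21e, 9930111J21Rik1 and Kcnq1ot1 (0.10 to 0.11), which in counts this sparse is no finding.

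No difference between the genotypes beyond the spread of the mice was found for Meg3, Kcnq1ot1 or Gm10800. The log2 differences were -0.42 (SE 0.81, adjusted p = 0.971, exact permutation p = 0.7), -0.48 (SE 0.60, adjusted p = 0.943, p = 0.7) and -0.91 (SE 1.39, adjusted p = 0.963, p = 0.6, all from limma and the exact permutation test). As a share of all transcripts Gm10800 was 39.2% ± 9.46 in WT and 29.2% ± 19.2 in Tln1ΔMC mice (SD, n = 3 each), a difference of -10.0 percentage points (exact two-sided permutation p = 0.6). The difference rested on Tln1ΔMC mouse 3: without it the means were 39.2% and 39.8%, and the log2 differences became 0.29 for Kcnq1ot1 and 0.14 for Gm10800. The Meg3 difference turned to 0.31 without the cell that held the most Meg3. In the sets with both genotypes the Kcnq1ot1 ratio of Tln1ΔMC to WT was 0.696 and 1.60, and that of the Gm10800 share was 0.841 and 1.18, on either side of equal.

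Partner genes were taken as lists. Of 18 nuclear speckle and splicing factors, 0 passed the adjusted test between genotypes, 2 were higher at an unadjusted p under 0.05 (3.89% of all genes tested were), and 5 were higher in Tln1ΔMC mice without overlap (7.6% of all genes tested), with a median log2 difference of 0.24 against 0.03 over all genes tested. Srrm2, a scaffold of nuclear speckles, stood at 7.61, 5.30 and 6.54 per 10000 in WT and 10.8, 11.0 and 8.33 in Tln1ΔMC mice (log2 difference 0.69, SE 0.20, limma p = 0.0082, adjusted p = 0.680). Srrm1 stood at 2.05, 1.53 and 1.42 and at 2.44, 2.49 and 2.13 (log2 difference 0.56), and Clk1 and Srsf5 did not overlap either. The groups were apart for both SR matrix proteins, though neither passed the adjustment. Of 14 paraspeckle proteins, the partners of Neat1, 0 had an unadjusted p under 0.05, and the median log2 difference was -0.02. Tardbp and Cpsf6 were lower in Tln1ΔMC mice without overlap, at log2 differences of -0.34 and -0.21 (4.01% of all genes tested were lower without overlap), and Rbm14 (-0.48) and Hnrnpa1 (0.29) overlapped. Of 32 other long noncoding RNAs 18 could be tested, with a median log2 difference of 0.15. Of these 1, Dnm3os, was higher at an unadjusted p under 0.05 (0.0231, 0.0349 and 0.0286 against 0.167, 0.195 and 0.0668 per 10000). Dnm3os and Mir17hg were higher without overlap (7.6% of all genes tested were). A gene needed 10 transcripts or more in 3 or more mice to be tested. Both fell short of 10 in every WT mouse and entered only through the Tln1ΔMC mice, so nothing is read from them. The 5 satellite-like Gm genes tested had a median of 0.51, with none under an unadjusted p of 0.05.

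The imprinted neighbours of Meg3 and Kcnq1ot1 were described in both cell classes. In the Dlk1-Dio3 domain, Rian, Mirg, Dlk1 and Rtl1, 4 of 5 genes in the tables, stood above all 6 MC mice in Myh11-GFP cells, as did Meg3 (21.7% of all genes tested stood above). Rian, a maternally expressed noncoding RNA, was at 0.882 per 10000 in Myh11-GFP cells and at 0.157 to 0.404 in MC mice, and Dlk1, a paternally expressed protein related to Notch ligands, at 1.03 and 0 to 0.139, whereas Rtl1 rested on a level of 0.00694 and is near the floor. In the Kcnq1 domain, 2 of 8 genes were above and 2 below all 6 MC mice, against 21.7% and 38.4% of all genes tested. Kcnq1 itself, the potassium channel gene within which Kcnq1ot1 starts, was at 1.31 to 1.60 per 10000 in MC mice and 0.00694 in Myh11-GFP cells, and Tssc4 at 0.261 to 0.925 and 0.0972. Cdkn1c, the cell cycle inhibitor that Kcnq1ot1 is known to silence in cis, was at 0.0573 to 0.172 in MC mice and 0.681 in Myh11-GFP cells, and Nap1l4 at 0.329 to 0.488 and 0.569. Kcnq1ot1 was found in both classes and Kcnq1 almost wholly in MCs, and reads were counted in the sense direction, so that the 2 strands were kept apart. Between genotypes 0 of 5 tested genes of the Kcnq1 domain and 0 of 1 of the Dlk1-Dio3 domain (Rian, log2 difference 0.01) had an unadjusted p under 0.05. Cdkn1c was lower in Tln1ΔMC mice without overlap (log2 difference -0.83, SE 0.42, limma p = 0.083, adjusted p = 0.881), as were 4.01% of all genes tested. Its levels in MCs, 0.0573 to 0.172 per 10000, rest on few transcripts, so nothing about the domain is read from this.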

How the data were processed

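Transcripts were measured by mCEL-Seq2 in 30 MC and 4 Myh11-GFP libraries. The authors aligned reads with BWA 0.6.2-r126 to ENCODE VM9 gene models (mm10), counted UMIs in the sense direction, discarded reads with several loci, merged overlapping loci and corrected UMI counts for collisions. Deposited are transcript counts with decimals, which the authors did not scale for depth. In 34 of 34 tables they went back to whole UMIs within 1e-06. Each table holds 2 sets of 96 barcodes, 1 in use, and 17 of the 2807 cells kept lay on the other.

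The number in the titles was taken as the mouse, and p-values measure only the spread between the samples so numbered. All libraries draw on the same 2 sets of barcodes, and not all use the same set, so a shared barcode marks no shared cell. Cells with over 1000 transcripts were kept, more MCs than the study analysed. Libraries of a mouse were summed. A gene needed 10 transcripts or more in 3 or more mice and was tested with limma 3.58.1 in R 4.3.3 (trend) on log2(1 + transcripts scaled to 1000000 outside Gm genes), with TMM factors computed in Python 3.11 (trims of 30% and 5%), and adjusted by Benjamini-Hochberg over all of them. The rule for quoted genes was the 5 themselves, the 8 other Gm genes with the largest MC share, the 5 most like each by rho, and up to 4 per list by p. The genes and lists were chosen with earlier results of these data known. On simulated sums (dispersion 0.05) limma found 94.8% of genes changed 4-fold and 39% changed 2-fold among 9007 genes. The simulation used the same dispersion for every gene and had no sets of libraries and no other cell types. In the data Col1a2, at a log2 difference of -4.08, had an adjusted p of 0.542 (limma). The simulated percentages therefore do not carry over to these mice. Alternatives changed the total, the scaling, the pseudocount, the filters on genes and cells, the depth per cell, and the mice or libraries included. GENCODE M21 gave positions and sequences, and the sequence of Meg3 is not reported here.

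Of the lists not given above, 0 of 10 MC, 0 of 5 keratinocyte and 0 of 1 pericyte markers and 1 of 14 dissociation-induced genes (Atf3, lower) had an unadjusted p under 0.05. Endothelial, smooth muscle and striated muscle markers could not be tested in MCs, where their summed levels were at most 0.269, 0.200 and 0.0382 per 10000, and in Myh11-GFP cells striated muscle markers stood at 6.42. The tables of cell barcodes deposited with the series name cells of other libraries and were not used.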

Additional observations from a re-analysis of the deposited data

Results flagged for a closer look

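Of 35 groups of 4 to 10 libraries of 1 mouse or class, 5 held a library far from the others, and chance alone gives about 1 in 20. In WT mouse 3, library 2 stood at 2.32 Meg3 transcripts per 10000 outside Gm genes, against 0.256 in the next library, and held the cell with the most Meg3. In Tln1ΔMC mouse 1, library 1 was highest for Malat1, 133.8 against 119.5. Library 8 of Tln1ΔMC mouse 3 was lowest for both Malat1 (67.9 against 106.97) and Neat1 (11.4 against 17.5), and its keratinocyte markers, 133.7 per 10000, were the highest of the 30 MC libraries. The part of those cells was not tested, and without this library the log2 differences between genotypes were 1.48 for Malat1 and 0.72 for Neat1. In Tln1ΔMC mouse 3, library 1 was highest for Gm10800, 23.8% of transcripts against 11.7%.

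Barcodes that were not in use also carried counts, of which Gm10800 made up 23.7%. By sample it was 21.4% and 20.8% of them in WT mouse 1 and Tln1ΔMC mouse 1, 40.6%, 43.2% and 42.5% in WT mice 2 and 3 and Tln1ΔMC mouse 2, 4.90% in Tln1ΔMC mouse 3 and 7.43% in Myh11-GFP cells. The share on unused barcodes thus went with the set of libraries, and a median well there held 134.03 transcripts, against 4759 on the barcodes in use.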

How the results depend on the processing

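Malat1 and Neat1 stayed higher in Tln1ΔMC mice, without passing the adjustment, under every alternative run. Leaving out each mouse in turn gave log2 differences of 1.24 to 1.77 for Malat1, 0.53 to 0.85 for Neat1, -1.32 to 0.37 for Meg3, -1.04 to 0.29 for Kcnq1ot1 and -1.63 to 0.14 for Gm10800, and -18.1 to 0.5996 percentage points for the Gm10800 share. Meg3 turned to 0.37 without WT mouse 3 and to 0.19 without Tln1ΔMC mouse 3, and to 0.38 as a mean over cells. The alternatives below were added after seeing the data: the set of libraries as a term gave 0.11 for Meg3, 0.29 for Kcnq1ot1 and 0.18 for Gm10800, and leaving out the cell with the most Meg3 gave 0.31 for Meg3. Others left out wells on unused barcodes and 3 libraries rich in other cell types (libraries 1 and 3 of WT mouse 2, library 8 of Tln1ΔMC mouse 3), and reversed none of these differences.

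The count of genes past the adjusted threshold, 0, became 7 without Tln1ΔMC mouse 1 (Col1a2, Col6a1, Col6a2, Dcn, Fstl1, Igfbp7 and Serpinf1, all lower) and 1 with the set of libraries as a term (Timp3, lower), and the range without each mouse was 0 to 7. The cause was not tested. With the mouse number as a replicate block it was 0, with 426 genes at an unadjusted p under 0.05 and an adjusted p of 0.913 for Malat1. Deviations of mice with the same number correlated at 0.18, -0.26 and -0.29, and those of WT mouse 2 and Tln1ΔMC mouse 3 at 0.45. A pairing by number was thus not seen, but deviations from means of 3 mice cannot exclude it. The block changed no call. As a share of transcripts outside Gm genes, cells over 2% Kcnq1ot1 differed by -1.40 percentage points between genotypes (0 of all transcripts, also without each mouse, 0 to 0).

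The ratio of the MC mean to Myh11-GFP was 1.23 to 1.58 for Malat1, 1.69 to 1.99 for Neat1, 0.0381 to 0.0625 for Meg3, 2.06 to 2.83 for Kcnq1ot1 and 2.46 to 3.26 for Gm10800 without each mouse or library, and with Gm genes in the total it moved from 1.83 to 1.25 for Neat1, from 1.40 to 0.981 for Malat1, from 2.43 to 1.49 for Kcnq1ot1 and from 0.0539 to 0.0320 for Meg3. Correlations moved with the total: with Gm genes in it, rho in MCs was -0.14 for Malat1 and Gm10800, -0.13 for Malat1 and Kcnq1ot1, -0.25 for Neat1 and Gm10800 and -0.17 for Neat1 and Kcnq1ot1, and in Myh11-GFP cells 0.24 for Malat1 and Gm10800, 0.19 for Malat1 and Kcnq1ot1 and 0.37 for Malat1 and Neat1. Thinning gave 0.57 for Kcnq1ot1 and Gm10800, 0.16 for Malat1 and Kcnq1ot1 and 0.13 for Malat1 and Neat1 in Myh11-GFP cells, and Pearson's r for the last was 0.38. The planned edgeR alternative was not run. Meg3 in MCs rests on 184.3 transcripts in all, which limits any comparison of it.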
